A study of Mus musculus with 2 samples.

Results

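The genes described here are 9 that make, store and break down catecholamines: Th, Ddc, Dbh, Pnmt, Gch1, Slc18a1, Slc18a2, Cyb561 and Maoa. They were picked by gene name, out of 15683 annotated genes with at least 1 read in either library, and all 9 had reads in both. The material was the adrenal gland of male B6CASTF1/J mice, 36 days old, a first-generation hybrid of a C57BL/6J and a CAST/EiJ parent. Long-read RNA sequencing was done on 2 libraries of 1 group, called replicate 1 and replicate 2, and no library was treated, so there is no contrast of conditions. Whether they came from separate animals is not settled, because the animal numbers in the labels match in one field and differ in another, so the difference between the libraries may be technical in part.

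Catecholamines are made in the adrenal medulla by chromaffin cells. Tyrosine hydroxylase (Th) turns tyrosine into L-DOPA with tetrahydrobiopterin as cofactor, and Gch1 starts the synthesis of that cofactor. Ddc then makes dopamine, Dbh turns dopamine into noradrenaline inside the granule, and Pnmt in the cytosol turns noradrenaline into adrenaline. The vesicular transporters Slc18a1 and Slc18a2 load amines into granules, Cyb561 carries electrons across the granule membrane to renew the ascorbate that Dbh uses, and Maoa on the mitochondrial surface deaminates amines that are free in the cytosol.

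Replicate 1 held 452489 endogenous reads and replicate 2 held 463210, with spike-in reads set aside. Levels are CPM, counts scaled to the total of endogenous reads, so 1 read was worth 2.21 and 2.16 CPM, and the floor of 3 counts that 0 reads would allow lay at 6.63 and 6.48 CPM. A long read counts a transcript once whatever its length, so CPM was not divided by transcript length. Annotated transcripts of the 9 genes differ in length, as with Pnmt-201 at 1154 bases and Maoa-201 at 4167. Whether length affected how often a transcript was read, and so the order of the genes, was not tested. Markers of both parts of the gland were present. The 18 listed chromaffin markers, which include none of the 9 genes, were all seen and summed to 9841 and 14827 CPM, and the 10 cortex markers to 76736 and 61132 CPM. Pancreas acinar markers took 34 reads in replicate 1 and 3340 in replicate 2, islet markers 0 and 117, liver markers 3 and 262, and the ribosomal RNA locus 365 and 1161 CPM. In whole tissue, fewer cells of a type and less RNA per cell cannot be told apart.

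The sequences printed here are those that the results on splicing and on where reads begin turn on. Positions are on mm10, and gene models are those of GENCODE M21. The first is exon 6 of the main Th transcript, Th-201, in capitals, which lies between the introns 5 and 6 that some reads retain (exon 6 at chr7:142896029-142896079, minus strand), with 20 spliced bases of its neighbouring exons on each side. The second joins the end of exon 8 to the start of exon 9, in capitals, across intron 8. The other 2 are the first coding bases of Cyb561 (in exon 2 of Cyb561-201, chr11:105937629-105937840, minus strand) and of Slc18a1 (in exon 3 of Slc18a1-201, chr8:69075034-69075305, minus strand), with the start codon in capitals, since reads of both genes began downstream of the annotated first exon.
Th exon 6 with flanks: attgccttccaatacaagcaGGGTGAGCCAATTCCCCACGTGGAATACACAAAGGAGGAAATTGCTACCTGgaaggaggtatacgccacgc
Th exon 8 to exon 9: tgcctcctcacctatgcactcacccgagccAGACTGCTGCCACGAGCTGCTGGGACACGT
Cyb561 coding start: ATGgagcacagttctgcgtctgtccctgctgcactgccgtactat
Slc18a1 coding start: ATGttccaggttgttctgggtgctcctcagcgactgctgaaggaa

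Promoters were taken from RefSeq (GRCm38.p6), as 250 bases before to 50 after each start. Of the 9 genes, 6 matched, with 7 promoters. Pnmt, Slc18a1 and Cyb561 were not matched. The cAMP response element TGACGTCA, which reads the same on both strands and is the site that factors of the CREB family bind, was present in the promoters of Th and Slc18a2 and in 588 of 32851 promoters of the same length (1.79%). It is in capitals below and overlapped none of the other motifs searched. In Th it began 45 bases upstream of the RefSeq start (chr7:142899996-142900245, minus strand), and in Slc18a2 it began 4 bases upstream and ran past the start (chr19:59260628-59260889, plus strand, printed to 12 bases after the start).
Th promoter: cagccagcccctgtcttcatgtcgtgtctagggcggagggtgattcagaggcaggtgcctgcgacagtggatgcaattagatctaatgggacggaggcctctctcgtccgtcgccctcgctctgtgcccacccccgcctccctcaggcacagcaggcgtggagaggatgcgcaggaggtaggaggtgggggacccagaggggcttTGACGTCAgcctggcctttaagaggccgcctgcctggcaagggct
Slc18a2 promoter: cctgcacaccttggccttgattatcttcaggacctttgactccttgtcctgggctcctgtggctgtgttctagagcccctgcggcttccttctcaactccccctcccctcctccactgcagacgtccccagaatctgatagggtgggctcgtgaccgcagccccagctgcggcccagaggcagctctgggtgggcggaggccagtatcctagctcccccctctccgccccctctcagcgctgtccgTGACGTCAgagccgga
Searched on both strands over the same windows, the GC box GGGCGG was in the promoters of Gch1, Maoa, Slc18a2 and Th (35.7% of all promoters). The TATA box letters TATAAA were in those of Ddc and Gch1 (13.6%), and CCAAT in those of Dbh, Ddc and Gch1 (37.4%). These matches describe letters in a window and say nothing of binding.

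The synthesis enzymes covered a wide range of levels, from Th among the most abundant genes of the gland to Ddc at a few reads. Th (chromosome 7, 142892752 to 142931128, minus strand) had 1076 reads in replicate 1 and 1252 in replicate 2, which is 2378 and 2703 CPM, or 2540 ± 230 CPM (SD, n = 2). By mean CPM it ranked 21 among all genes and alone held 61.8% and 57.5% of the reads of the 9 genes. Both libraries put it above every other member, 3.44-fold over the next gene, Pnmt. Gch1 (chromosome 14, 47153895 to 47189413, minus strand), which supplies the cofactor of Th, had 110 and 83 reads, or 211 ± 45.2 CPM. That is 102 and 66.3 reads of Gch1 per 1000 reads of Th, so Gch1 had its lower value in replicate 2, where Th had its higher one.

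Ddc (chromosome 11, 11814101 to 11898144, minus strand), the enzyme between Th and Dbh, had only 2 reads in replicate 1 and 3 in replicate 2. Its level was 5.45 ± 1.45 CPM (SD, n = 2), with exact Poisson 95% intervals of 0.535 to 16.0 and 1.34 to 18.9 CPM. Both values lie at or below the floor of 3 counts, so its level is bounded from above rather than measured. Of the reads in replicate 2, 2 followed the annotated Ddc-202. In replicate 1 there was 1 unannotated spliced read, and the other was unspliced. Per 1000 reads of Th there were 1.86 and 2.40 reads of Ddc.

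Dbh (chromosome 2, 27165233 to 27183200, plus strand) had 126 and 171 reads, 278 and 369 CPM, or 324 ± 64.1 CPM (SD, n = 2). Pnmt (chromosome 11, 98386450 to 98388181, plus strand), the enzyme that sets adrenaline apart from noradrenaline, had 230 and 448 reads, 508 and 967 CPM, or 738 ± 324 CPM. The last enzyme of the pathway was thus read more often than the enzyme before it in both libraries, and it had the widest relative spread of the 9 genes, with an SD of 44.0% of its mean.

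Genes of storage fell into 2 ranges. Cyb561 (chromosome 11, 105933702 to 105953336, minus strand) had 165 and 193 reads, or 391 ± 36.8 CPM (SD, n = 2), close to Dbh, and the ranges of these neighbours in the order overlapped. The amine transporters were far lower. Slc18a1, also called VMAT1 (chromosome 8, 69037711 to 69089235, minus strand), had 12 and 11 reads, or 25.1 ± 1.96 CPM, and Slc18a2, or VMAT2 (chromosome 19, 59260896 to 59296012, plus strand), had 10 and 8 reads, or 19.7 ± 3.41 CPM. Between Gch1 and Slc18a1, the next gene down, the mean level dropped 8.40-fold. The exact Poisson intervals of both transporters overlapped in each library, from 13.7 to 46.3 CPM for Slc18a1 and 10.6 to 40.6 CPM for Slc18a2 in replicate 1.

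Breakdown was represented by Maoa (chromosome X, 16619698 to 16687818, plus strand), with 9 reads in each library and 19.7 ± 0.326 CPM (SD, n = 2). In the order of levels its range overlapped that of Slc18a2. The closeness of its values is finer than counting error allows, since 9 reads carry an exact Poisson interval of 9.09 to 37.8 CPM in replicate 1. In order of mean CPM the genes ran Th, Pnmt, Cyb561, Dbh, Gch1, Slc18a1, Slc18a2, Maoa and Ddc. Cyb561 with Dbh and Slc18a2 with Maoa were the neighbouring pairs whose library values overlapped.

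**Figure D1:**
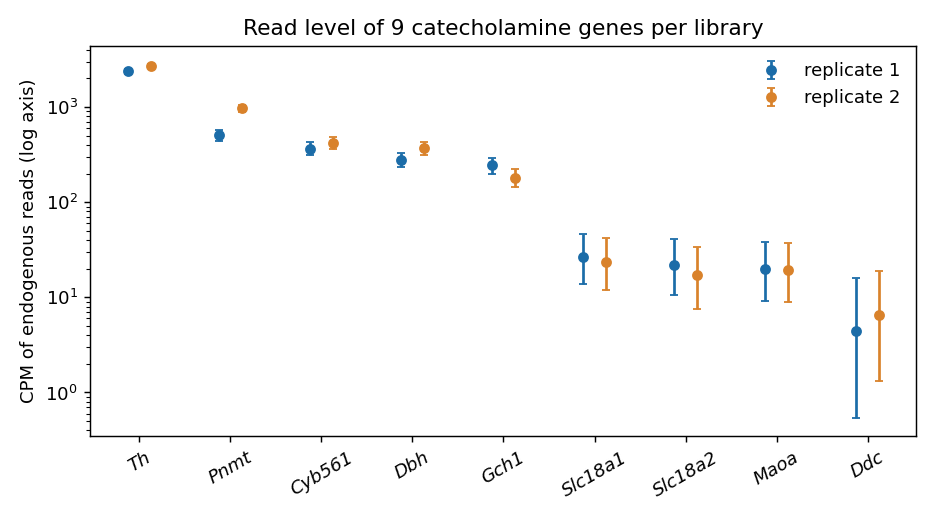
Level of each of the 9 genes in CPM of endogenous reads (log axis) in replicate 1 (blue) and replicate 2 (orange), with exact Poisson 95% intervals that cover counting error only. Th lies at 2378 and 2703 CPM, the middle group from Gch1 to Pnmt between 179 and 967 CPM, the transporters and Maoa near 20 CPM, and Ddc at the floor of 3 counts.

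Between the libraries, the enzymes and granule genes with many reads differed by less than 2-fold, and Pnmt differed most. Each of 8135 genes with 10 reads or more over both libraries was set against the rest of the reads in a two-sided Fisher's exact test, with Benjamini-Hochberg adjustment over all of them. Genes with an adjusted p below 0.05 and a 2-fold or larger change, with 1 CPM added to each level, were called. The test sets library against library and not condition against condition. It and all intervals cover counting error alone, and without molecular identifiers reads may be copies of one molecule. Of the 8 genes with enough reads, 0 were called, against 3.16% of all genes tested. At any fold, 2 had an adjusted p under 0.05 (Th and Pnmt), against 6.45% of all genes.

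Pnmt was higher in replicate 2 by 1.90-fold (exact 95% interval 1.62 to 2.24; adjusted p = 4.67e-14 in Fisher's exact test), or 0.93 on the log2 scale, just under the 2-fold limit. It was called at a limit of 1.5-fold, beside 4.9% of all genes, and over full-length reads alone (1.05 on the log2 scale), where Cyb561 was called too and 2.96% of all genes were. Th was higher by 1.14-fold (1.05 to 1.23; adjusted p = 0.0358, Fisher's exact test). For Dbh the ratio was 1.33 (1.05 to 1.68; adjusted p = 0.160), for Cyb561 1.14 (0.923 to 1.42; adjusted p = 0.624) and for Gch1 0.737 (0.548 to 0.989; adjusted p = 0.243), all by the same exact test. Of the well-read genes, Gch1 alone had the lower value in replicate 2, and none of these last ratios passed the adjusted threshold.

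The scarce genes had intervals too wide to place a 2-fold difference. The ratio of replicate 2 over replicate 1 was 0.895 for Slc18a1 (0.358 to 2.22), 0.781 for Slc18a2 (0.268 to 2.20) and 0.977 for Maoa (0.344 to 2.78). Ddc, with 5 reads in all, was not tested. Of the 8 tested genes 4 were higher and 4 lower in replicate 2. Their median log2 ratio was 0.08, beside -0.03 over all genes tested.

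Markers of the 2 parts of the gland also differed between the libraries. Summed chromaffin markers were 1.51-fold higher in replicate 2 (1.45 to 1.56), with 13 of the 15 tested ones higher and 1 called (Resp18, at 26 and 64 reads). Summed cortex markers were lower, at a ratio of 0.797 (0.784 to 0.809), with 9 of 10 lower and Nr5a1 called. Endothelial markers stood at a ratio of 0.960 (0.824 to 1.12) and adipose markers at 0.953 (0.907 to 1.00), although within the adipose list Car3 (1664 and 1019 reads) was lower and Fabp4 (477 and 821) and Ucp1 (198 and 437) higher in replicate 2, Ucp1 alone being called. Sympathetic neurons also make noradrenaline; of their 7 markers all were seen, at 323 and 591 reads together, of which Npy, also on the chromaffin list, held 313 and 582 and each of the others at most 5. Schwann cell markers took 14 and 26 reads, and of the kidney markers Aqp2 had 8 and 2 reads while Kap, Slc34a1 and Umod were at 0. The 9 genes together took 1740 and 2178 reads, or 0.385% and 0.470% of endogenous reads. Scaled to the chromaffin markers in place of all reads, which lowers the median of all genes by 0.58 on the log2 scale, Th (-0.41), Cyb561 (-0.40) and Dbh (-0.18) turned to lower values in replicate 2. Pnmt stayed higher on that scale, by 0.34 in place of 0.93 on the log2 scale (adjusted p = 0.0197, Fisher's exact test). Scaled in this way, Gch1 was called lower (-1.03), beside 16.3% of all genes called, 76 of them higher and 1252 lower in place of 118 and 139. The part of cell makeup in these differences was not tested.

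**Figure D2:**
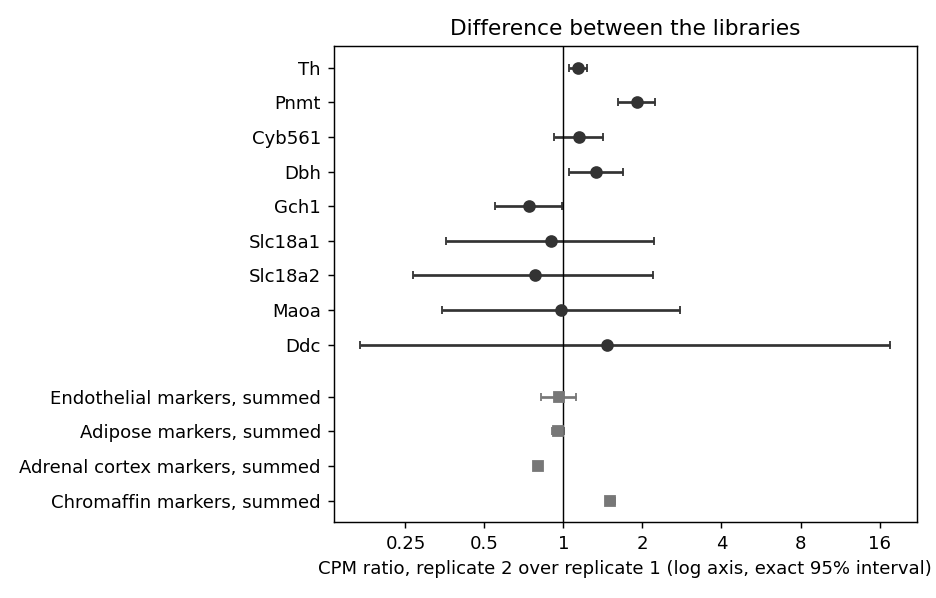
Ratio of CPM in replicate 2 over replicate 1 (log axis) for the 9 genes (circles) and for summed marker lists (squares), with exact 95% intervals that cover counting error only. Pnmt lies at 1.90 and Gch1 at 0.737, summed chromaffin markers at 1.51 and summed cortex markers at 0.797, and the intervals of Slc18a1, Slc18a2, Maoa and Ddc span 1 widely.

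How far the reads followed annotated transcripts differed from gene to gene. Known reads follow an annotated transcript, NIC reads join annotated splice sites in an unannotated combination, and NNC reads use at least 1 unannotated splice site. These 3 classes count here as full-length. An ISM (incomplete splice match) read follows only part of an annotated chain of introns, and a Genomic read overlaps the gene without its splicing. Some reads without an intron were also classed as ISM, as for Pnmt and Dbh in replicate 2. Th reads were full-length in 96.2% and 95.8%, Gch1 reads in 88.2% and 90.4%, Pnmt reads in 87.0% and 91.1%, and Dbh reads in 76.2% and 72.5%. Cyb561 stood apart, at 157 of 165 reads (95.2%) in replicate 1 and 72 of 193 (37.3%) in replicate 2.

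The full-length share was tested in 1510 genes with 50 reads or more per library. A difference of 10 percentage points or more with an adjusted p below 0.05 was called. Cyb561 was called (adjusted p = 1.58e-30, Fisher's exact test), 1 of the 5 catecholamine genes tested, against 0.132% of all genes tested. The other 4 members differed by at most 4.11 points and none passed. For Cyb561 the change came with a change of class of a single chain of introns, described below.

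**Figure D3:**
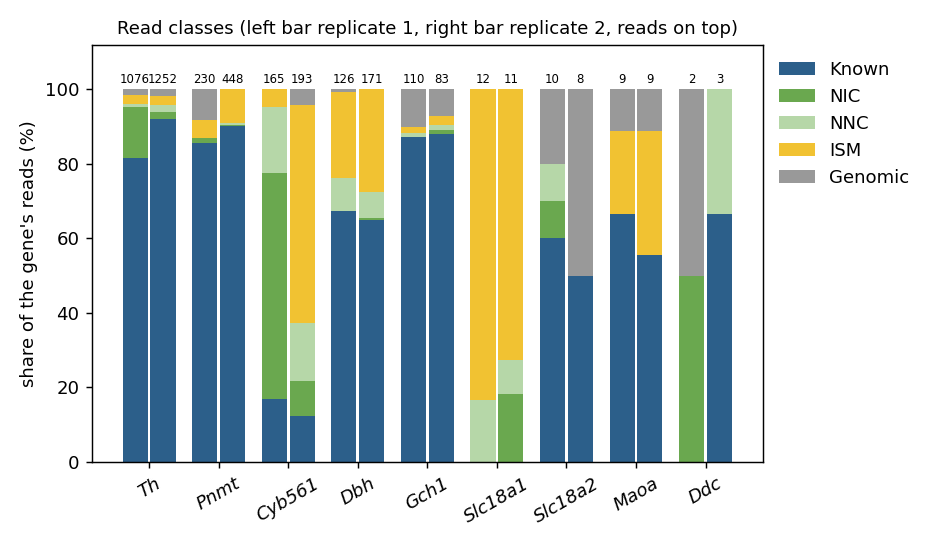
Share of each gene's reads (%) in the 5 classes Known, NIC, NNC, ISM and Genomic, with replicate 1 as the left bar and replicate 2 as the right bar and the number of reads on top. Th, Pnmt and Gch1 are mostly Known, Slc18a1 has no Known read, and the NIC part of Cyb561 in replicate 1 appears as ISM in replicate 2.

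Th made 1 main transcript, and in replicate 1 a sizeable share of its reads kept 1 or more introns. Th-201, with 13 exons and 1494 coding bases, took 878 of 1035 full-length reads in replicate 1 (84.8%, Wilson 95% interval 82.5 to 86.9%) and 1154 of 1200 in replicate 2 (96.2%, 94.9 to 97.1%). The annotated forms that start upstream, Th-202 and Th-206, had 0 reads in either library. The rise of 11.3 points was called (adjusted p = 4.94e-18, Fisher's exact test). In this test 2 of the 5 members with 50 or more full-length reads per library were called (Th and Cyb561), against 0.241% of 1247 genes.

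Intron retention was counted over spliced reads, a measure added after values had been seen. Of the Th reads, 147 of 1061 in replicate 1 (13.9%, Wilson interval 11.9 to 16.1%) and 22 of 1229 in replicate 2 (1.79%, 1.19 to 2.70%) kept at least 1 intron of Th-201. The difference (-12.1 points in replicate 2) was called with an adjusted p of 1.32e-27 in Fisher's exact test. Th was the 1 member called of 5 tested, against 0.604% of 1324 genes (8 genes, of which 7 were lower in replicate 2). Over all genes tested the share of reads with a retained intron was 3.30% and 2.53%, so replicate 1 was higher there as well, by a smaller step.

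Retention in Th was concentrated in 3 of its 12 introns. Intron 5 (331 bases, chr7:142896080-142896410) was kept in 114 of 1043 reads that span it in replicate 1 (10.9%) and in 13 of 1215 in replicate 2 (1.07%). Intron 6 (360 bases, chr7:142895669-142896028), across the 51-base exon 6 printed above, was kept in 96 of 1044 (9.20%) and 7 of 1215 (0.576%). Intron 8 (158 bases, chr7:142895159-142895316), at the exon 8 to exon 9 join printed above, was kept in 82 of 1054 (7.78%) and 6 of 1223 (0.491%). Each of the other 9 introns was kept in at most 1.23% of reads in either library, and introns 1 and 10 in none. The shortest intron, number 7 with 70 bases, was kept in 13 of 1054 reads (1.23%) and 0 of 1220.

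The retained introns tended to occur on the same reads. Introns 5 and 6 alone were kept together in 45 and 3 reads, and introns 5, 6 and 8 in 34 and 3. Intron 8 alone was kept in 24 and 1 reads and intron 5 alone in 12 and 6, while no read kept intron 6 alone. The same 4 combinations led in replicate 1 and were all seen in replicate 2. Over all spliced Th reads, 97.5% and 97.8% reached the annotated first exon. The authors' tables place the leading chain of each of these 4 combinations in the NIC class, so it counts as full-length and lowers the share of Th-201. The chain that skips exon 6 and otherwise follows Th-201 had 1 and 2 reads.

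**Figure D4:**
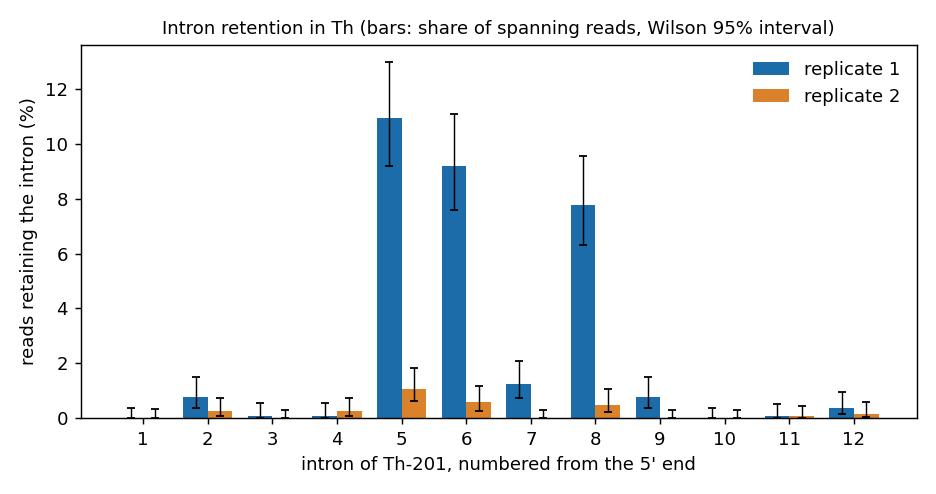
Share of spliced Th reads that retain each intron of Th-201 (%), out of reads that span it, in replicate 1 (blue) and replicate 2 (orange), with Wilson 95% intervals that cover counting error only. Introns 5, 6 and 8 reach 10.9%, 9.20% and 7.78% in replicate 1, and no intron exceeds 1.07% in replicate 2.

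Pnmt, with 3 exons, was nearly all Pnmt-201 among full-length reads, at 197 of 200 (98.5%) and 404 of 408 (99.0%). Its intron 2 of 108 bases (chr11:98387545-98387652) was kept in 11 of 211 spliced reads in replicate 1 (5.21%, 2.94 to 9.09%) and 3 of 414 in replicate 2 (0.725%, 0.247 to 2.11%). The direction was that of Th, and the adjusted p was 0.0477 in Fisher's exact test, but the difference did not reach 10 points and was not called. By class, Pnmt had 19 Genomic reads in replicate 1 and 0 in replicate 2, and 11 and 40 ISM reads. The 11 ISM reads of replicate 1, and 3 of those in replicate 2, were the ones that kept intron 2. Only 414 of the 448 Pnmt reads in replicate 2 were spliced, so its ISM class also held reads without an intron. Whether unspliced reads were classed alike in both libraries was not tested. Spliced reads starting in or before the annotated first exon were 211 of 211 in replicate 1 and 411 of 414 in replicate 2. A form without exon 2 had 3 and 1 reads.

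Gch1 and Dbh each had 1 leading transcript in both libraries. Gch1-201 took 96 of 97 full-length reads (99.0%) and 73 of 75 (97.3%), and no intron of Gch1 was kept in any spliced read. Dbh-201 took 85 of 96 (88.5%) and 111 of 124 (89.5%). Dbh had more partial reads than the other enzymes, with 29 and 47 ISM reads, those of replicate 2 including some without an intron. Of its spliced reads, 95 of 125 in replicate 1 (76.0%) and 122 of 160 in replicate 2 reached exon 1. By reads, the most frequent partial chains held the last 3 exons (6 and 12 reads), or began with exon 3 (11 and 6) or exon 4 (5 and 5). The model of the first of these begins at 27180312, so it also covers bases of the intron before exon 10, which begins at 27180977. Of the unannotated full-length Dbh chains, 3 had at least 3 reads in all. One carried exon 8 longer at its 3′ end, to position 27177842 (3 and 3 reads), another held an extra exon from 27180312 to 27180419 (4 and 1 reads), and the third ended exon 9 at 27178244 (2 and 2 reads).

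Cyb561 reads mostly began at a first exon other than that of its main annotated transcript, in both libraries alike. A downstream exon with its border at chr11:105940100 was first in 93 of 160 spliced reads in replicate 1 (58.1%, Wilson 95% interval 50.4 to 65.5%) and in 109 of 185 in replicate 2 (58.9%, 51.7 to 65.8%). Models that share this border were pooled. The widest begins at 105940378, 4034 bases downstream of the Cyb561-201 start, and had 1 read. The leading model, with 88 and 104 reads, begins at 105940164. The annotated first exon (chr11:105944111-105944412) was first in 36 of 160 (22.5%, 16.7 to 29.6%) and 36 of 185 (19.5%, 14.4 to 25.8%). The intervals of these 2 exons did not overlap in either library. The border of the downstream exon is annotated, but as an inner exon, in Cyb561-204 and Cyb561-207. It is also an inner exon of a 7-exon chain of 9 and 11 reads, and the leading chain matches the 3′ part of that one. Reads cut short at the 5′ end therefore cannot be told apart from reads of transcripts that start there.

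Further first exons of Cyb561 have no annotated border. An exon from 105939930 to 105940100 led 15 and 19 reads, and one that begins 5432 bases downstream, from 105938538 to 105938980, led 10 and 11. All of these exons joined exon 2 of Cyb561-201, which holds the start codon printed above. So 27 and 22 reads followed Cyb561-201 over its whole chain, and the leading chain with both the annotated first exon and the downstream exon had 9 and 11. A chain that starts at the downstream exon and has the longer exon 5 of Cyb561-206 had 1 and 4 reads.

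**Figure D5:**
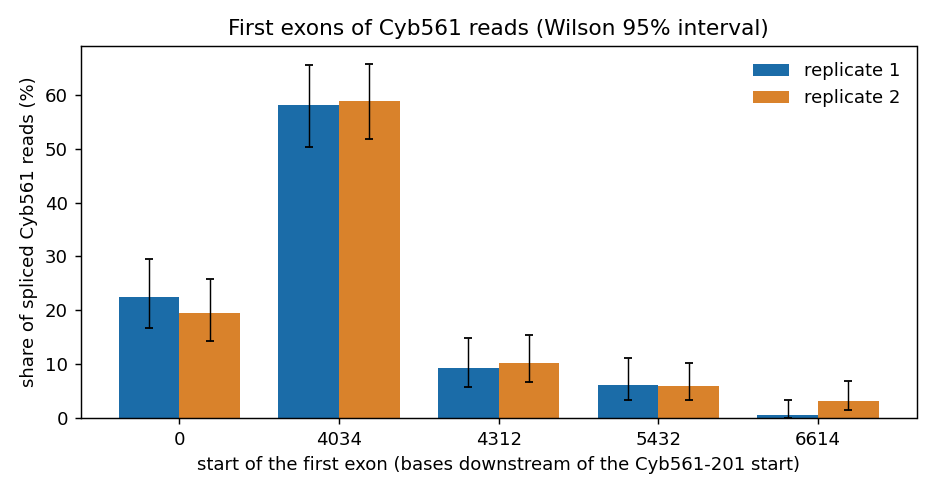
Share of spliced Cyb561 reads (%) by where their first exon starts, in bases downstream of the Cyb561-201 start, for first exons with at least 3 reads, in replicate 1 (blue) and replicate 2 (orange), with Wilson 95% intervals. The bars at 4034 bases, placed by the widest model that shares the exon border at 105940100, lead with 58.1% and 58.9%. They lie above the annotated start at 22.5% and 19.5%. The leading model within them begins at 105940164.

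The class of the leading Cyb561 chain, and not its share, set the calls on this gene. The 6-exon chain that starts at the downstream exon had 88 reads in replicate 1, where the deposited table has it as NIC, and 104 in replicate 2, where the table has it as ISM. Over full-length reads it therefore stood at 88 of 157 (56.1%) and 0 of 72 (adjusted p = 4.07e-17, Fisher's exact test). With ISM reads counted in both libraries its share was 55.0% and 56.2%, and with the chain taken as full-length in both it was 56.1% and 59.1%. In both of those counts Th was the 1 member still called, beside 0.0749% and 0.16% of the genes tested. Among 20052 chains of introns found in both libraries, 457 (2.28%) changed class and 128 (0.638%) were full-length in one table only.

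Neither vesicular transporter could be said to prevail. Slc18a1 made up 12 of 22 transporter reads in replicate 1 (54.5%, Wilson 95% interval 34.7 to 73.1%) and 11 of 19 in replicate 2 (57.9%, 36.3 to 76.9%), and the libraries did not differ detectably at this depth (p = 1, two-sided Fisher's exact test). Slc18a1 had 0 Known reads in both libraries. Its leading form was a 16-exon chain of 9 and 4 reads that lacks exon 1 of Slc18a1-201, and 0 of 12 and 0 of 11 reads reached that exon, with upper Wilson bounds of 24.2% and 25.9%. The chain begins at the exon at chr8:69077189-69077228, so it still holds the start codon in exon 3, printed above. An annotated form, Slc18a1-202, also starts at this exon. Reads of Slc18a1-201 cut short at the 5′ end cannot be told apart from reads of transcripts that start there. As the reads of this chain are ISM, the share of Slc18a1 depends on the classes counted: the mean was 56.2% over all classes, 31.4% over full-length reads and 66.7% over Known, ISM, NIC and NNC reads.

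Reads of Slc18a2 and Maoa were few, and most of the spliced ones followed 1 annotated form. Slc18a2-201, with 16 exons, had 6 and 4 reads, and 2 and 4 Slc18a2 reads were Genomic. Maoa-201, with 15 exons and 4167 bases, had 6 and 5 Known reads, and 7 of 8 and 6 of 8 spliced Maoa reads reached exon 1. Th had 77 distinct chains of introns, of which 16 were in both libraries, Dbh 27, Cyb561 21, and Pnmt and Gch1 7 each. Such counts can rise with depth and with the number of exons, which was not tested.

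Around these genes, a list of 47 others that serve catecholamine handling was compared in the same way. Of these, 45 had reads in at least 1 library. Of the 32 tested, 0 were called higher in replicate 2 and 2 lower, where 1.45% and 1.71% of all genes were called higher and lower. The median log2 ratio was -0.06. The called genes were Slc3a2, the heavy chain of amino acid transporters that carry tyrosine (280 and 131 reads, ratio 0.457, exact 95% interval 0.369 to 0.564; adjusted p = 2.14e-12, Fisher's exact test), and Slc23a2, an ascorbate transporter (19 and 4 reads, 0.206, 0.0509 to 0.619; adjusted p = 0.0258).

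Of the cofactor genes 0 of 5 tested were called, and of the breakdown genes 0 of 6, beside 3.16% of all genes tested. Among the tetrahydrobiopterin genes, Qdpr, which regenerates the cofactor, had 55 and 59 reads (124 ± 4.12 CPM, SD, n = 2) and Pts, the second step of its synthesis, 20 and 25, and breakdown genes were led by Aldh2 (361 and 330 reads, 755 ± 60.4 CPM) and Akr1a1 (295 and 317, 668 ± 22.9 CPM), enzymes that oxidise and reduce aldehydes. Maob, the other monoamine oxidase, had 5 and 4 reads.

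Uptake and supply genes were led by Atox1, a copper chaperone (138 and 187 reads), and Slc31a1, a copper importer (47 and 44 reads). Copper is the metal at the active site of Dbh. Slc7a5, a light chain that pairs with Slc3a2, had 14 and 20 reads. Of genes that supply or clear the methyl donor of Pnmt, Mat2a, which makes S-adenosylmethionine, had 186 and 95 reads (adjusted p = 8.31e-07, Fisher's exact test, not called since it missed 2-fold), and Ahcy had 21 and 19. The lower Mat2a value lay in replicate 2, where Pnmt was the higher. Both values are those of the whole gland, and a link between them was not tested.

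Regulators of Th activity all had the lower value in replicate 2 on every scale tried. Of these, 0 of 5 were called, beside 3.16% of all genes tested. Their median log2 ratio was -0.33, beside -0.03 over all genes, and the chromaffin scale alone shifts the median of all genes by -0.58. The reads are those of the whole gland, and which cells they came from was not tested. Ywhaz (83 and 47 reads) had an adjusted p of 0.0220 in Fisher's exact test without reaching 2-fold. Ywhae, a 14-3-3 protein, had 218 and 166 reads, and Ppp2ca, the catalytic subunit of a phosphatase that acts on Th, 192 and 156. Transcription factors of chromaffin cells were scarce, led by Gata2 (15 and 29 reads) and Hand2 (14 and 22 reads), with 5 of 6 tested higher in replicate 2 (4 of 6 on the chromaffin scale) and 0 called. Among receptors, Chrna3, a subunit of the nicotinic receptor through which nerves trigger release, had 11 and 13 reads and Chrna7 had 2 and 9. Slc6a2, the noradrenaline transporter, had 5 and 2 reads.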

How the data were processed

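Per the labels, long-read RNA-seq was done on 2 adrenal gland libraries. The deposited tables hold whole read counts per transcript model on mm10, with no normalization, and their classes are those of TALON; per the file headers, models carry GENCODE M21 names. For the aligner and TALON the version was not stated in the labels or headers. Spike-in rows (1.20% and 3.30% of reads) were removed and reads summed per gene over all classes. Libraries were compared by two-sided Fisher's exact tests with Benjamini-Hochberg adjustment over all genes (scipy 1.17.1), with Wilson, exact Poisson and exact conditional intervals, all at 95%. With 1 library a side, edgeR's quasi-likelihood test has no residual degrees of freedom. edgeR 4.0.16 and DESeq2 1.42.0 gave alternative scales. Forms were matched by chromosome, strand and intron chain. The tests were checked on simulated counts. Named were all 9 genes, their unannotated forms with at least 3 reads summed where described, and of each of 8 pathway subgroups the 2 most abundant genes and any called; Maob, Slc6a2, Ywhaz and single reads were added. The members and lists were chosen with earlier results of these data known.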

Additional observations from a re-analysis of the deposited data

Results flagged for a closer look

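Reads of the Antisense class, which lie opposite a gene and enter no level given above, passed the limit of 3 counts that a count of 0 allows at 2 of the 9 genes. Opposite Ddc there were 2 reads in replicate 1 and 4 in replicate 2. Opposite Slc18a1 there were 2 in replicate 1 and 6 in replicate 2, and Atp6v1b2, which overlaps Slc18a1 on the other strand, had 89 and 61 reads of its own there. All of these Antisense reads belonged to single-exon models. No control samples exist to set a background for them.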

How the results depend on the processing

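Settings were changed one at a time. No paired analysis was possible because there is 1 group of 2 libraries. Where 0 members were called between libraries, 1 was called on the chromaffin scale (Gch1), 2 with full-length reads alone (Pnmt at 1.05, and Cyb561, which turned to -1.09 as its leading chain changed class) and 1 at 1.5-fold (Pnmt). Of all genes tested, 3.16% were called in the main setting, 16.3% on the chromaffin scale, 2.96% with full-length reads alone and 4.9% at 1.5-fold. The chromaffin scale also reversed Th (-0.41), Dbh (-0.18) and Cyb561 (-0.40), called 76 genes higher and 1252 lower, and TMM factors turned Maoa to 0.032. Other scales moved the 118 higher and 139 lower calls to 140 and 114 (TMM). With 2 members called on leading form, 1 was called with ISM counted, where Cyb561 differed by 1.22 points, and 1 with chains full-length in either table (3.04 points; chosen after seeing the data), while Known reads alone gave 0, since Th, Dbh, Pnmt and Gch1 then have 1 form each and Cyb561 falls below 50 reads. Out of Known, ISM, NIC and NNC reads alone, the differences in full-length share of Th (0.0909 points), Pnmt (-3.72) and Gch1 (-0.577) changed sign, none of them called. The Slc18a1 share was 31.4% over full-length reads and 66.7% over Known, ISM, NIC and NNC reads, and 54.5% to 57.9% in single libraries. The summed level of the 9 genes was 3845 to 4702 CPM in single libraries. Intron retention of Th was called in each setting tried. Depth limits Ddc, Maoa and both transporters, whose intervals span 2-fold either way.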
